A study of Mus musculus with 4 samples.

Results

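Integrins are the cell surface receptors that attach cells to the extracellular matrix, and 10 genes for their subunits were followed here: Itga3, Itga4, Itga5, Itga6, Itga8, Itga9 and Itgav, which encode alpha chains, and Itgb1, Itgb3 and Itgb5, which encode beta chains. The members are all probe sets that the array platform's annotation assigns to these genes alone. There were 36 such probe sets, of 34945 assigned to 1 gene each on the array, and 10 genes of 18193. Of the 36 probe sets, 21 reached the floor described below on at least 1 array and 15 lay below it on all 4, and each gene had between 2 and 6 probe sets.

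RNA was measured on Affymetrix mouse arrays in embryoid bodies grown for 5 days from Snai1 knockout embryonic stem cells and from control cells with the genotype F/F, and in teratomas collected at week 6 from the same kinds of cells. Snai1 encodes a zinc-finger repressor best known for silencing epithelial genes when cells become mesenchymal or enter gastrulation. Embryoid bodies formed as hanging drops and differentiated without added direction, and the teratomas grew subcutaneously at a hind limb of nude mice (males, 6 weeks old). Each of the 4 groups (Snai1 knockout embryoid body, control embryoid body, Snai1 knockout teratoma and control teratoma) was 1 array, so no difference below has a replicate check and no test was run. The sources used here do not give how the knockout was made, whether each genotype was 1 clone or whether a teratoma RNA came from 1 tumour. Nude mice lack mature T cells but keep B cells, innate leukocytes, vessels and stroma, so teratoma RNA can hold host transcripts.

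An integrin is a pair of 1 alpha and 1 beta chain, and the pair sets which matrix protein is bound. Itgb1 protein is the common partner of most alpha chains. With it, the Itga3 and Itga6 chains bind laminins of basement membranes, the Itga5 chain binds fibronectin through an arginine-glycine-aspartate (RGD) motif, the Itga8 chain binds RGD ligands such as nephronectin, and the Itga4 and Itga9 chains bind VCAM1, fibronectin variants, tenascin and related ligands. The Itgav chain pairs with several beta chains, Itgb3 and Itgb5 among them, to bind vitronectin and other RGD proteins, and the Itgb3 chain also pairs with the platelet chain encoded by Itga2b, the fibrinogen receptor. Fibronectin and its integrin receptors are needed for mesoderm and vessel formation in the mouse embryo.

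Because Snail family proteins bind the letters CAGGTG, which read as CACCTG on the other strand, the 250 bases before each annotated gene start were searched for either spelling. RefSeq windows were matched for 8 of the 10 members (9 windows), and Itga6 and Itgb3 had no window in the table used. The letters occurred in 3 of the 9 windows, those of Itga3, Itga9 and Itgb5, against 17.2% of all 32851 windows of the same length. These 3 windows are printed 5′ to 3′ on the strand of the gene (GRCm38.p6, from RefSeq), with the motif in capitals. They are shown because they are the member windows that hold the letters, while the 3 genes differed in how they read in the knockout, as described below.
Itga3, chr11:95076715-95076964, minus strand: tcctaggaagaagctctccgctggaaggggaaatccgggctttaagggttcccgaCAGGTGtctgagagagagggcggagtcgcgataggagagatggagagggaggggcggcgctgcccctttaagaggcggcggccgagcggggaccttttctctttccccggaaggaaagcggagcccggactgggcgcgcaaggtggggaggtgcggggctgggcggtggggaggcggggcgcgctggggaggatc
Itga9, chr9:118711442-118711691, plus strand: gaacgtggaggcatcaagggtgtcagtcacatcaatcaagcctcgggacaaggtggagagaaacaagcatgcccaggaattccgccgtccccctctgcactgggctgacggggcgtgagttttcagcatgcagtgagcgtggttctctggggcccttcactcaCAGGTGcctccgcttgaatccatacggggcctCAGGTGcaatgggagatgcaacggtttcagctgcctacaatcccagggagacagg
Itgb5, chr16:33829415-33829664, plus strand: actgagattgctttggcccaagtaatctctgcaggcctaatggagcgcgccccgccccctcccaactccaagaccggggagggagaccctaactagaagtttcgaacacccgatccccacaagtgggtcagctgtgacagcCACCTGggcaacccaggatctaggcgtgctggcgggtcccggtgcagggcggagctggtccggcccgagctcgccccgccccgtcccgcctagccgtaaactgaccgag
In Itga3 the motif began 195 bases before the annotated start, and in Itgb5 it began 109 bases before it. In Itga9 it occurred at 87 and at 55 bases before the start, and that start lies 104983 bases downstream of the gene's first annotated base, so the window belongs to an inner start of the gene. The second Itga3 window, at an inner start 7646 bases into the gene, held no match. The only Itgav window, also without a match, belongs to a start 2094 bases into the gene, so the bases before the gene's first annotated base were not searched. A match describes letters in a window and not binding.

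Values are RMA log2 expression values, and a difference is the knockout minus the control value unless stated otherwise. The floor of an array was the median of its non-control probe sets, 4.73 in knockout embryoid bodies and 4.71 in control embryoid bodies, and 5.04 in the knockout teratoma and 5.08 in the control teratoma. Of several probe sets, the one brightest on average stands for the gene, and counts of higher or lower genes use a limit of 2-fold, a log2 difference of 1. Levels of different genes are not comparable, because each probe set has its own response. As the only internal yardstick, the differences of probe sets for the same gene scattered around their mean with an SD, pooled over genes, of 0.29 in embryoid bodies (12907 probe sets of 4977 genes) and 0.28 in teratomas (12091 probe sets of 4661 genes), which leaves out variation between cultures or tumours. The Snai1 probe set read 3.45 in knockout and 4.78 in control embryoid bodies. In teratomas it was under the floor, at 3.44 in the knockout and 3.59 in the control, and the control embryoid body value was just above the floor of 4.71. The probe set therefore gives little check of the knockout label on any array, and whether it lies in the deleted part is not given. Defining markers of the labelled tissues were present, with 6 of 6 neuronal and 5 of 5 glial markers at or above the floor in both teratomas, against 3 of 6 neuronal markers in both embryoid bodies, 1 of 5 glial markers in knockout embryoid bodies and 0 of 5 in control embryoid bodies. All 5 epiblast and streak markers on the array were above the floor in both embryoid bodies, against 3 of 5 in both teratomas.

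**Figure D1:**
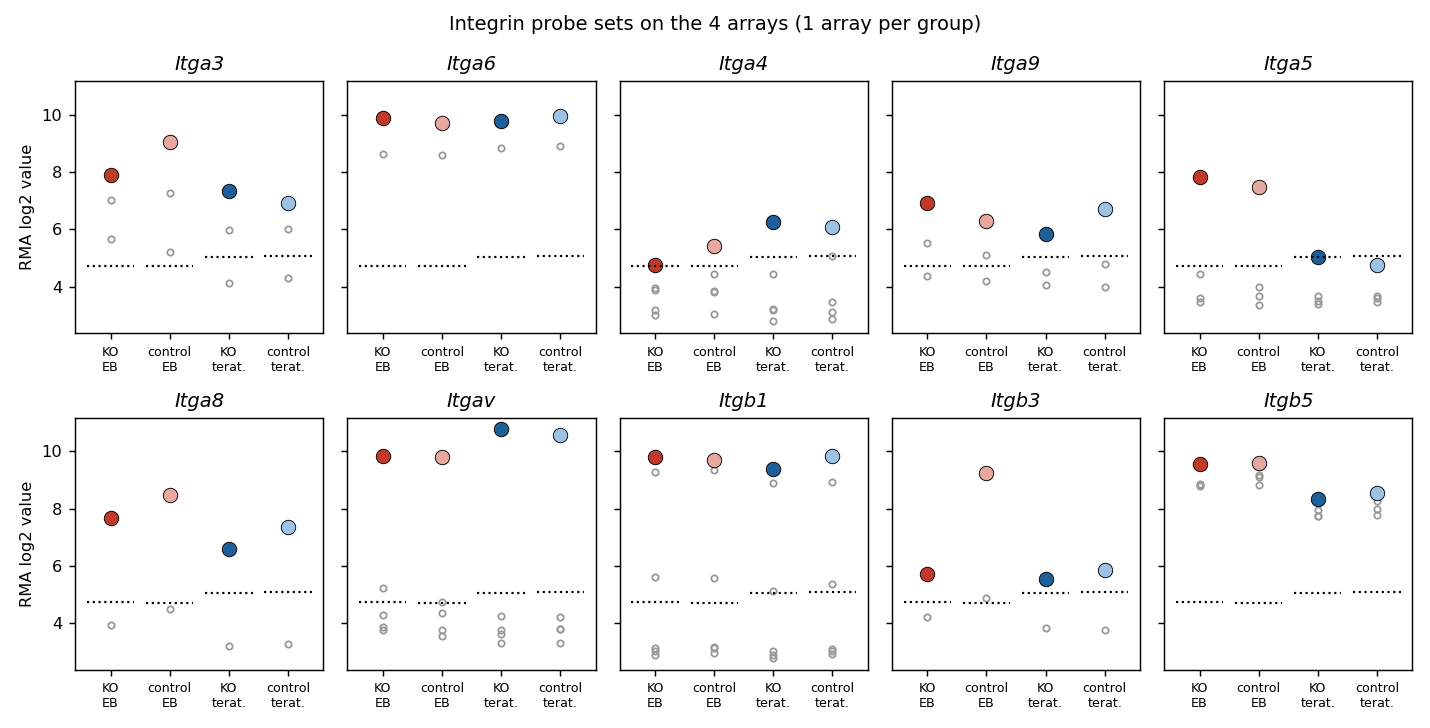
RMA log2 values of every integrin probe set on the 4 arrays, 1 panel per gene, with the knockout left of its control. Large filled circles are the probe set used for the gene, open grey circles its other probe sets, and dotted lines the floor of each array. Itgb3 stands at 9.26 in control embryoid bodies and between 5.54 and 5.87 on the other 3 arrays, and Itga5 lies at or below the floor in both teratomas.

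In day 5 embryoid bodies the integrin differences were carried by Itgb3. It read 5.73 in knockout and 9.26 in control embryoid bodies, a difference of -3.54 or 11.6-fold lower, and 27 of the 12255 measured genes, Itgb3 included, were at least as low. In bulk RNA such a difference can come from fewer cells of a type or from less RNA per cell, which cannot be told apart here. Itga3 was the other member past 2-fold. By the probe set used for each gene, the general chains encoded by Itgb1, Itga6, Itgav and Itgb5 differed by no more than 0.16. Thus 2 of 10 members were at least 2-fold lower, where 3.99% of all measured genes were, and 0 of 10 were at least 2-fold higher, where 2.19% of all measured genes were. The members' median difference was -0.01, beside 0.03 over all measured genes, with 5 members above 0 and 5 below.

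Among the laminin receptors, Itga3 read 7.91 in knockout and 9.03 in control embryoid bodies, 2.18-fold lower. Its 3 probe sets disagreed, since the others differed by -0.23 (7.04 in knockout, 7.27 in control) and by 0.46 (5.65 in knockout, 5.19 in control). The 2-fold count for Itga3 therefore rests on 1 probe set, and the mean of the 3 gave -0.30. Itga6, the chain of the main laminin receptor of stem cells and epithelia, read 9.87 in knockout and 9.71 in control embryoid bodies, and its second probe set read 8.64 in knockout and 8.59 in control. Both Itga6 probe sets thus differed by less than the scatter between probe sets.

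The chains of the VCAM1 and tenascin receptors had differences of opposite sign. Itga4, a chain of migrating mesodermal, crest and blood cells, read 4.74 in knockout and 5.43 in control embryoid bodies, a difference of -0.68, with the knockout value just above the floor of 4.73. Its other 4 probe sets lay below the floor on all arrays. Itga9, which binds tenascin and is known for lymphatic valve formation, read 6.92 in knockout and 6.28 in control embryoid bodies. That difference of 0.64 was the largest positive one among the members, equalled or exceeded by 719 measured genes, and a second Itga9 probe set differed by 0.39.

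None of the RGD receptor alpha chains reached 2-fold. Itga8, a chain of mesenchymal cells and of the early kidney, read 7.69 in knockout and 8.49 in control embryoid bodies, 1.74-fold lower, and its second probe set was below the floor throughout. The fibronectin receptor chain Itga5 read 7.81 in knockout and 7.48 in control embryoid bodies, a difference of 0.33. This value comes from a probe set with a shared-sequence suffix, and the other 3 Itga5 probe sets lay below the floor on all arrays. Itgav read 9.82 in knockout and 9.79 in control embryoid bodies, while its weaker second probe set, at 5.22 in knockout and 4.74 in control, differed by 0.48.

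Of the beta chains, Itgb1 read 9.81 in knockout and 9.72 in control embryoid bodies, and the other 2 of its probe sets above the floor differed by -0.07 and 0.03. Itgb5 read 9.55 in knockout and 9.60 in control embryoid bodies, with its 4 probe sets between -0.32 and 0.01. The beta chains that pair with Itgav thus differed in size, with Itgb3 at -3.54 beside Itgb5 at -0.05, each relative to its own level. The second Itgb3 probe set gave little information, because it read 4.22 in knockout embryoid bodies, below the floor, and 4.89 in control embryoid bodies, just above it, a bound of -0.16. The Itgb3 difference therefore rests on 1 probe set, and the mean of both gave -2.10.

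**Figure D2:**
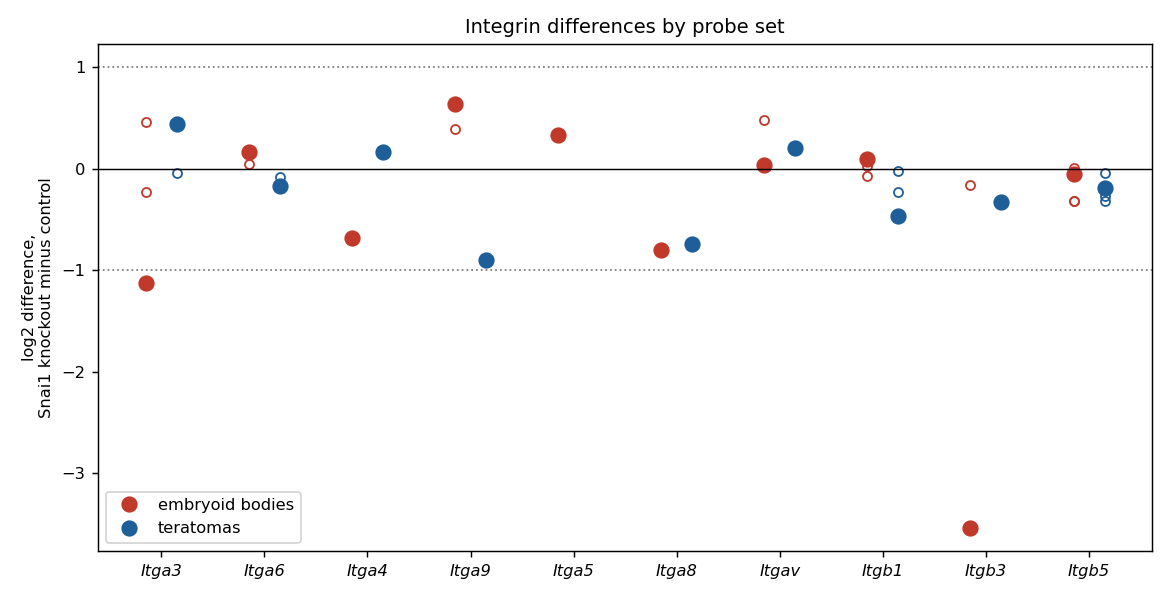
Log2 difference of knockout minus control for each integrin gene in embryoid bodies (red, left) and teratomas (blue, right). Filled circles are the probe set used for the gene, open circles its other measured probe sets, and dotted lines mark 2-fold. Itgb3 in embryoid bodies is far from all other points at -3.54, and Itga3 is the only gene whose embryoid body probe sets lie both above 0 and below -1.

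Other genes of the same systems were read beside Itgb3. Itga2b, the platelet partner of Itgb3, read 5.73 in knockout and 8.21 in control embryoid bodies, 5.58-fold lower. It was the only measured member of the other integrin subunits past 2-fold (1 of 7 lower and 0 higher, median -0.02). Fermt3, which encodes the kindlin that activates integrins in blood cells, read 6.33 in knockout and 9.71 in control embryoid bodies, 10.4-fold lower, and its 2 other measured probe sets differed by -1.90 and by at least -3.22. Markers of platelets and megakaryocytes had a median of at most -1.44, with 4 of 6 measured markers at least 2-fold lower. In control embryoid bodies 6 of the 8 on the array were at or above the floor. In knockout embryoid bodies 1 of 8 was, that 1 being Pf4, so the other differences and the median are bounds. A second probe set of the platelet receptor gene Gp1bb, not counted here, was also above the floor, at 5.12 in knockout and 5.36 in control embryoid bodies. The counted values ran between 3.22 and 5.18 in knockout and between 4.01 and 9.87 in control embryoid bodies. Pf4, the platelet chemokine, read 5.18 in knockout and 9.87 in control embryoid bodies. Endothelial markers, another cell type that uses Itgb3, had a median of -1.15 with 5 of 9 lower. All 9 were above the floor on both embryoid body arrays, where their values ran between 4.84 and 8.69 in the knockout and between 6.31 and 9.24 in the control. Of 3 measured osteoclast markers, 1 was at least 2-fold lower and 0 higher. Acp5 was at least 5.34-fold lower, Mmp9 differed by -0.999 and Calcr by a bound of 0.90, while Ctsk and Ocstamp lay below the floor on both arrays. Mesenchymal markers had a median of -3.71, with 9 of 11 lower. All 11 were above the floor, between 5.03 and 8.37 in knockout and between 5.50 and 13.02 in control embryoid bodies. Primitive erythroid markers had a median of at most -3.70, a bound, with 7 of 7 lower. Visceral and parietal endoderm markers had a median of -1.78 with 6 of 10 lower. The part of these cell types in the Itgb3 difference was not tested.

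Genes whose pattern over the 4 arrays was nearest to that of Itgb3 were Ccn4, Steap1 and Apoc2, out of 12781 candidates. The likeness is the root mean square distance of values centred on each gene's own mean over 4 arrays, and was 0.13 for Ccn4, 0.17 for Steap1 and 0.22 for Apoc2 log2 units. Ccn4, a secreted matricellular protein gene, read 5.36 in knockout and 9.08 in control embryoid bodies, and 5.28 in the knockout and 5.85 in the control teratoma. For Itga5 the nearest genes were Slc16a13 (0.09), Gtse1 (0.09) and Eme1 (0.10). For Itga3 they were Slc25a37 (0.07), Nid2 (0.09) and Colec12 (0.10), of which Nid2 encodes a basement membrane protein. These distances use values below the floor too: Itga5, Slc16a13 and Colec12 lay below it in both teratomas, and Apoc2 on all but control embryoid bodies. With 4 arrays, such likeness describes these values only.

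**Figure D3:**
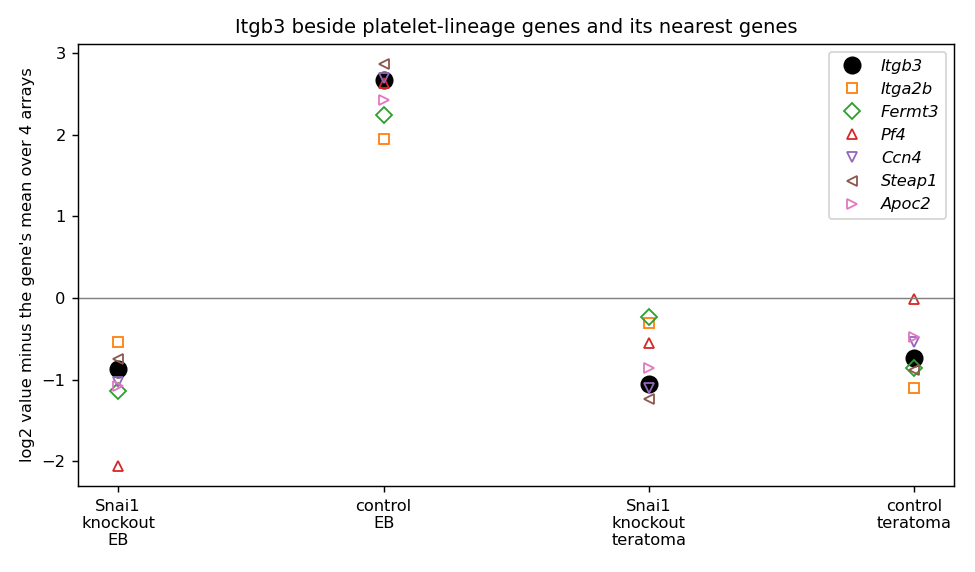
Log2 values minus each gene's mean over the 4 arrays, with Itgb3 as filled black circles. Open symbols are the platelet genes Itga2b and Pf4, the blood cell gene Fermt3 and the 3 genes nearest to Itgb3. All 7 genes are highest in control embryoid bodies, where Itgb3 is 2.66 above its mean, and Pf4 lies lowest in knockout embryoid bodies at -2.06.

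Proteins that link integrins to the actin cytoskeleton were read as a list of 32 genes, 29 of them on the array. Of 28 measured adhesion machinery genes, 5 were at least 2-fold lower and 0 higher, with a median of -0.32. Besides Fermt3 these were Parva, the parvin that binds integrin-linked kinase (2.90-fold lower, and -1.54 by both of its probe sets), Tgfb1i1, a paxillin relative (2.40-fold), Dab2, an adaptor that takes integrins into the cell (2.27-fold), and Lims2, a partner of the same kinase complex (2.08-fold). The widely used talin gene Tln1 and kindlin gene Fermt2 differed by -0.14 and -0.20, and second probe sets of these genes differed by -0.70 for Tln1 and -0.01 for Fermt2.

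The matrix proteins that these receptors bind were read as further lists. Among 17 measured ligands bound through RGD sites or by the fibronectin and VCAM1 receptors, 6 were at least 2-fold lower and 0 higher, with a median of -0.55. Fgb, the fibrinogen beta chain gene, was 6.38-fold lower, tenascin-C gene Tnc 4.62-fold lower (5.76 in knockout, 7.96 in control), and Svep1, a ligand gene of the Itga9 receptor, 3.76-fold lower. Emilin1 was 2.58-fold, Thbs1 2.24-fold and Vwf 2.06-fold lower. Fibronectin itself, Fn1, read 11.27 in knockout and 11.76 in control embryoid bodies, and its second probe set differed by -1.16. Nephronectin, Npnt, differed by -0.55, with its other measured probe sets between -1.001 and a bound of -0.07. Laminin chains had a median of -0.90 over 7 measured genes, with Lama4 3.52-fold and Lamb2 2.84-fold lower and 0 higher. Among 12 lateral partners, which sit beside integrins in the membrane, the urokinase receptor gene Plaur was 2.37-fold higher and the tetraspanin gene Tspan4 2.73-fold lower. Simple epithelial markers, read beside the Itga6 difference of 0.16, had 2 of 9 genes higher and 0 lower at a median of 0.86. They ran between 9.67 and 12.92 in knockout and between 8.36 and 12.77 in control embryoid bodies, and their part in the Itga6 value was not tested.

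**Figure D4:**
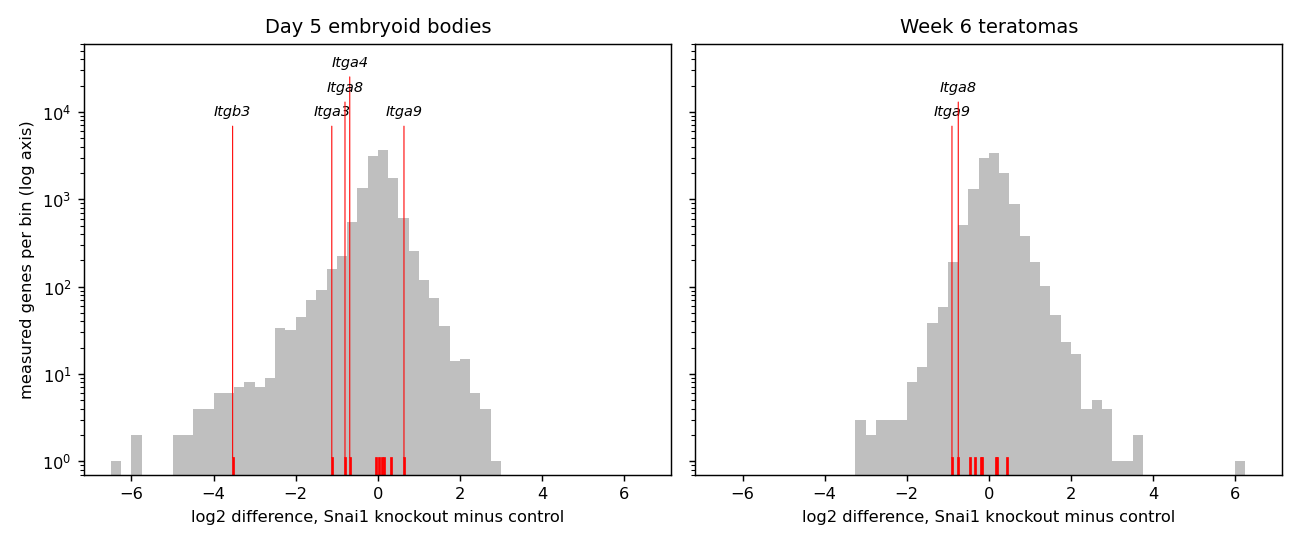
Distribution of log2 differences over all measured genes (grey bars, bins of 0.25, log axis of gene counts) in embryoid bodies (left) and teratomas (right), with the integrin members as red ticks and those beyond 0.63 named. In embryoid bodies Itgb3 sits in the sparse lower tail at -3.54, whereas in teratomas all 9 measured members lie between -0.90 and 0.44.

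In week 6 teratomas no integrin member reached 2-fold. Of 9 measured members, 0 were at least 2-fold higher, where 3.26% of all measured genes were, and 0 at least 2-fold lower, where 1.08% were. The median was -0.19, beside 0.07 over all genes, with 3 members above 0 and 6 below. Itga9 read 5.82 in the knockout and 6.72 in the control teratoma, a difference of -0.90, and 191 of 12175 measured genes were at least as low. Under quantile normalization of all 4 arrays that difference was -1.08, and with the floor at the 65th percentile it was a bound of -0.27. The other Itga9 probe sets lay below the floor in both teratomas. Itga8 read 6.61 in the knockout and 7.35 in the control teratoma, a difference of -0.75 that came close to its -0.80 in embryoid bodies. By the probe set used per gene, Itga8 was thus the only member with a difference below -0.5 in both settings. Both of its teratoma values lay below both embryoid body values. The mean of its probe sets gave -0.67 in embryoid bodies and, with the knockout below the floor, a bound of -0.27 in teratomas.

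Itgb3 read 5.54 in the knockout and 5.87 in the control teratoma, a difference of -0.33 or 1.25-fold lower. Both teratoma values and the knockout embryoid body value lay within 0.33 of each other, and only control embryoid bodies stood apart. Itga2b, in contrast, read 5.96 in the knockout and 5.16 in the control teratoma, a difference of 0.80. Itgb1 read 9.38 in the knockout and 9.84 in the control teratoma, -0.46, but the probe set without a shared-sequence suffix read 8.90 in the knockout and 8.92 in the control. Itgb5 read 8.34 in the knockout and 8.54 in the control teratoma, with its 4 probe sets between -0.31 and -0.05.

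Itga3 read 7.35 in the knockout and 6.91 in the control teratoma, a difference of 0.44, although its second measured probe set differed by -0.04. Itga6 read 9.78 in the knockout and 9.95 in the control teratoma, Itgav 10.78 in the knockout and 10.57 in the control, and Itga4 6.24 in the knockout and 6.08 in the control. All 3 differences were smaller than the scatter between probe sets. Itga5 lay below the floor in both teratomas, at 5.04 in the knockout and 4.76 in the control, so no fold is given. Leukocytes use Itga4, and at a median of 0.61 their markers had 4 of 10 genes higher and 0 lower. All 10 were above the floor, between 7.16 and 10.71 in the knockout and between 6.28 and 10.31 in the control teratoma. B and T lymphocyte markers had 3 of 3 measured genes higher, at a median of at least 3.02. All 3 were genes of the B lineage, and the T cell markers on the array lay below the floor in both teratomas. Of the 6 lymphocyte markers on the array, 3 were at or above the floor in the knockout and 1 in the control teratoma. The highest of them read 11.25 in the knockout and 5.11 in the control teratoma. The Itga4 difference beside these lists was 0.16, and the part of leukocytes or lymphocytes in it was not tested. Leukocyte integrin genes Itgal, Itgax and Itgb2 were above the floor in the knockout teratoma and below it in the control teratoma, with bounds of 0.18, 0.42 and 0.75.

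Integrin partners and ligands in teratomas stayed mostly under 2-fold as well. Adhesion machinery had 0 of 28 genes past 2-fold in either direction (median -0.06), and laminin chains 0 of 9 (median -0.17). Of 16 measured ligands, 2 were at least 2-fold lower and 0 higher, namely Emilin1 at -1.06 and Tgfb3 at -1.07. The lateral partner Bsg, a chaperone of membrane transporters that also contacts integrins, was 2.25-fold higher, 1 of 12 with 0 lower. Other integrin subunits had a median of 0.37 over 8 measured genes with 0 past 2-fold, while mesenchymal markers had a median of -0.72 with 3 of 11 lower.

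**Figure D5:**
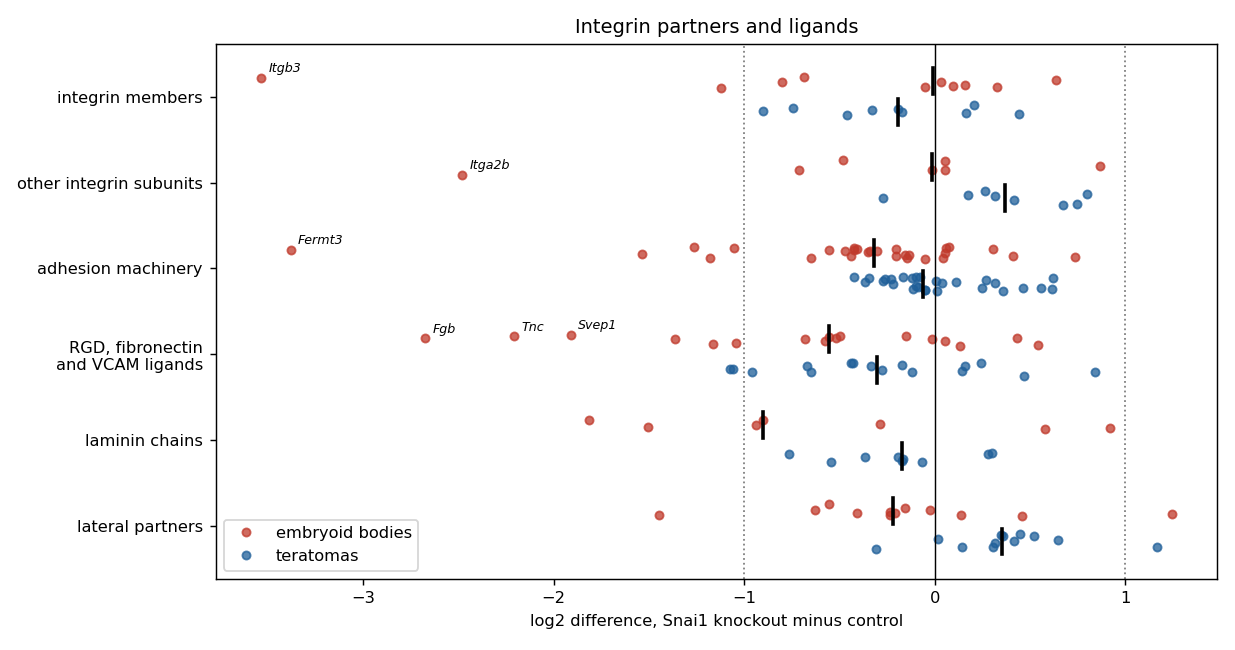
Log2 difference of knockout minus control for the integrin members and 5 lists of related genes, in embryoid bodies (red, upper row of each pair) and teratomas (blue, lower row). Each point is a measured gene, black bars are medians, dotted lines mark 2-fold, and genes beyond 1.9 are named. The embryoid body medians run from -0.90 for laminin chains to -0.01 for the members, and the teratoma points lie closer to 0 than the lowest embryoid body points.

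Set side by side, the knockout differences had the same sign in both settings for 4 of the 9 members measured in both and opposite signs for 5. By the 1 probe set used per gene, the teratoma difference minus the embryoid body difference was 3.21 for Itgb3, 1.56 for Itga3 and -1.54 for Itga9. For Itga3 the second probe set differed by only -0.23 in embryoid bodies and -0.04 in teratomas. The mean of all Itga3 probe sets gave -0.30 in embryoid bodies and 0.08 in teratomas. These contrasts between settings were not tested, since each rests on 4 single arrays.

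The settings themselves were compared as teratoma minus embryoid body, within each genotype. Tissue, age, host cells and RNA purification (columns for embryoid bodies, Trizol for teratomas) differ together in these comparisons and cannot be told apart. The excess of 3′ over 5′ signal on the Gapdh control probe sets, a measure of RNA quality, was 0.40 in the knockout and 0.65 in the control teratoma, against 0.10 in knockout and 0.17 in control embryoid bodies. The median over all genes was -0.18 in the knockout and -0.22 in the control comparison, and -0.46 and -0.55 when arrays were set to the same median. These comparisons share arrays with those of genotype, so the high Itgb3 value of control embryoid bodies enters both.

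In knockout cells 1 of 10 members was at least 2-fold higher in the teratoma and 4 were lower, where 20.3% of all measured genes were higher and 20.3% lower. In control cells 0 were higher, where 16.7% of measured genes were, and 5 were lower, where 19.6% were. The fibronectin receptor chain Itga5 was at least 6.81-fold lower in knockout and at least 5.29-fold lower in control teratomas than in embryoid bodies of the same genotype. Itgb5 was 2.31-fold lower in knockout and 2.09-fold lower in control teratomas, with each of its 4 probe sets between -1.21 and -0.90. Itga8 was 2.12-fold lower in knockout and 2.20-fold lower in control teratomas. These 3 genes were past 2-fold in both genotypes as deposited. Quantile normalization gave -0.86 for Itgb5 and -0.998 for Itga8 in control cells, and the mean of probe sets left a bound of -0.78 for Itga8 in knockout cells, because it lay below the floor in the knockout teratoma. A floor raised to the 65th percentile left Itga5 bounds of -1.36 in knockout and -1.08 in control cells.

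Itgb3 differed between settings in control cells, at 10.5-fold lower in the teratoma, but by -0.19 in knockout cells. By the probe set used, Itga3 differed by -2.12 in control and by -0.56 in knockout cells. Its second probe set, above the floor on all 4 arrays, differed by -1.26 in control and -1.07 in knockout cells. The mean of all Itga3 probe sets gave -1.43 in control and -1.05 in knockout cells, so the gap between genotypes rests on 1 probe set. Itga9 differed by -1.10 in knockout and 0.44 in control cells by the probe set used. The mean of its probe sets gave a bound of -0.56 in knockout and -0.05 in control cells, so the opposite signs rest on 1 probe set. Itga4 was 2.83-fold higher in the knockout teratoma than in knockout embryoid bodies, from an embryoid body value just above the floor, and differed by 0.65 in control cells. Itgav, the vitronectin receptor chain, was higher in teratomas by 0.95 in knockout and 0.78 in control cells, which is 1.13 and 1.00 above the median of all genes. The mean of all its probe sets gave -0.24 in knockout and -0.09 in control cells. Itga6 and Itgb1 differed by -0.09 and -0.43 in knockout cells and by 0.24 and 0.12 in control cells. The signs in control cells turned to -0.13 and -0.25 when arrays were set to the same median. The other Itgb1 probe sets above the floor gave -0.42 and -0.22 in control cells, so its positive sign rests on 1 probe set. The second Itga6 probe set gave 0.20 in knockout and 0.33 in control cells. Basal epidermal markers, a cell type rich in Itga6 and Itga3, were higher in teratomas in 6 of 6 cases in both genotypes, with medians of 2.19 in knockout and 2.14 in control cells. They ran between 5.85 and 10.56 in the knockout and between 6.36 and 10.51 in the control teratoma, against 3.34 to 8.26 in knockout and 3.30 to 8.52 in control embryoid bodies, and their part in the Itga6 and Itga3 values was not tested.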

How the data were processed

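The log2 values were made by the authors with affy and RMA, per the submitters' processing notes. RMA subtracts a background model, equalises array distributions and combines the probes of a set. The sources used here do not give software versions, the chip definition or whether all 4 arrays went through RMA as one batch. The RNA input was 250 ng per sample, per the labels' protocols.

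Of 45101 probe sets, 64 were controls. Of the 45037 others, 34945 named 1 gene, 932 several (none of them with a member) and 9160 none. Entrez numbers of 34741 matched RefSeq genes (GRCm38.p6), and 0 symbols changed. Values below an array's floor (50th percentile) were set to it. A single value below the floor gives a bound, dropped where the other value did not clear that floor, and values below the floor on both arrays give no difference. No test was run, since 1 array per group gives no replicate spread, and the number of arrays limits the precision. Members and lists were chosen with earlier results of these data known. The rule named all members, up to 6 genes at least 2-fold apart per list, and the 3 nearest genes of the 3 members with the widest range. Tln1, Fermt2, Fn1, Npnt, Mmp9, Calcr, Ctsk, Ocstamp, Itgal, Itgax and Itgb2 were chosen after their values were seen. Alternatives covered the probe set per gene, scaling, floor and threshold. Python 3.11.15, pandas 2.3.3 and numpy 2.4.6 were used, and the code was tested on simulated data.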

Additional observations from a re-analysis of the deposited data

Results flagged for a closer look

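Itga9 was picked out because its knockout difference had opposite signs in the settings, with both sizes at 0.5 or more. It was 0.64 in embryoid bodies and -0.90 in teratomas. The difference between settings was not tested, each value comes from a pair of single arrays, and the mean of all its probe sets gave 0.40 in embryoid bodies. In teratomas that mean lay below the floor in the knockout, which leaves a bound of -0.11.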

How the results depend on the processing

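No paired analysis was possible because each group has 1 array. Under 9 alternatives, 83 recomputed counts and medians of the members stayed close to the reported ones, 16 moved and 1 changed sign. Among differences of single members, 241 moved by less than the scatter between probe sets in the same comparison and 15 by more. That scatter was 0.29 in embryoid bodies and 0.28 in teratomas. Between settings it was wider, at 0.65 in knockout and 0.66 in control cells, so larger moves still counted as close there. The median in embryoid bodies turned to 0.033 with the floor at the 65th percentile, where Itga4 had no value. With the mean of probe sets, embryoid bodies had 1 lower member (Itgb3, at -2.10), and the comparison of settings in knockout cells had 0 higher and 2 lower members. Itga5 had no value under that mean when settings were compared, and none in any comparison without shared-sequence probe sets. Quantile normalization gave 1 lower member in teratomas, 2 higher ones between settings in knockout cells and 3 lower ones in control cells. With the floor at the 65th percentile, settings in knockout cells gave 0 higher members. At 1.5-fold, embryoid bodies had 1 higher and 4 lower members, teratomas 2 lower, and the settings 2 higher in knockout and 2 higher in control cells. At 3-fold, embryoid bodies had 1 lower member (Itgb3), and the settings 0 higher and 1 lower in knockout cells and 3 lower in control cells. Itgb3 in embryoid bodies ran from -3.56 to -2.10 over the alternatives.

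Over all genes, embryoid bodies had 268 higher and 489 lower genes, against 169 and 310 with the floor at the 65th percentile. Teratomas had 397 higher and 131 lower genes, against 262 and 76 with that floor, 266 and 86 with the mean of probe sets, and 374 and 206 after quantile normalization. With arrays set to the same median, the settings gave 2036 higher and 3786 lower genes in knockout and 1533 and 4100 in control cells, against 2566 and 2564 in knockout and 2098 and 2456 in control cells as deposited. Causes of these moves were not tested. By construction, a higher floor leaves fewer genes measured and sets more values to the floor, and a higher threshold calls fewer of the same measured genes. Genes near the floor, such as Itga4 and the second Itgb3 probe set, are limited by signal over background.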
